A study of Homo sapiens with 6 samples.

Results

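The genes described here encode the transcription factors and cofactors of the erythroid DNA-binding complex, namely GATA1, GATA2, TAL1, LMO2, LDB1, KLF1, NFE2, ZFPM1, GFI1B and RUNX1. They were measured in K562, an established human line from chronic myeloid leukaemia that keeps erythroid and megakaryocytic features, after calactin. The 10 genes were taken by symbol, and every probe set (a group of short array probes read as 1 value) whose platform annotation lists one of them was kept, because probe sets of 1 gene can disagree. That gave 32 of the 54613 probe sets that are not array controls. Of these, 19 carry the symbol of 1 gene alone and stand for 9 genes, out of 19775 genes with such a probe set. The other 13 list RUNX1 together with 2 uncharacterised loci and are described apart.

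The study compared 3 arrays of K562 cells given calactin, labelled as 0.15 mM for 12 h, with 3 arrays of untreated K562 cells of the same 12 h. Calactin is a cardenolide, a steroid glycoside of milkweed plants, and cardenolides as a class block the sodium pump. Samples within a group are labelled biological replicates, with no word on how the cultures were separated, so the p-values measure the spread between these samples. K562 is 1 line, and the labels name no vehicle for the untreated cells.

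GATA1 and GATA2 are zinc-finger proteins that bind GATA sequences, and erythroid maturation goes with a switch in which GATA1 takes the place of GATA2. TAL1 binds E-box sequences as a dimer with an E protein, LMO2 links it to the GATA factor without touching DNA, and LDB1 holds such assemblies together and brings enhancers close to promoters. KLF1 activates globin and other red cell genes through CACCC boxes, NFE2 drives late erythroid and platelet genes, ZFPM1 (FOG1) is the cofactor of GATA1, GFI1B is a repressor needed for both lineages, and RUNX1 serves early blood progenitors and megakaryocytes.

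Start-site windows of the genes show where the family's own binding letters lie. RefSeq windows of GRCh38.p14, from 250 bases before to 50 after a start, were matched by symbol for 8 of the 10 genes (all but LMO2 and NFE2), 11 windows in all. The GATA core was searched as GATAA, and as TTATC for the other strand. It was in 3 of the 11 windows, and 22.7% of all 35116 windows hold it. Those 3 windows are shown with the core in capitals, as they belong to a gene that was higher with calactin and to 2 that were not called, and GATA1 is shown as a lower gene whose window held no such letters.

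TAL1, chr1:47232286-47232585, minus strand: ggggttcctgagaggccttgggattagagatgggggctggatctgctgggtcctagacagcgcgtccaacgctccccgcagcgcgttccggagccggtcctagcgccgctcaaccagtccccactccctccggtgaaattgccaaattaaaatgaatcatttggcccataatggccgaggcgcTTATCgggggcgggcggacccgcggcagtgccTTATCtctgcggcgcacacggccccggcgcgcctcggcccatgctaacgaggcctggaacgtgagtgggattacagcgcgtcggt
KLF1, chr19:12887152-12887451, minus strand: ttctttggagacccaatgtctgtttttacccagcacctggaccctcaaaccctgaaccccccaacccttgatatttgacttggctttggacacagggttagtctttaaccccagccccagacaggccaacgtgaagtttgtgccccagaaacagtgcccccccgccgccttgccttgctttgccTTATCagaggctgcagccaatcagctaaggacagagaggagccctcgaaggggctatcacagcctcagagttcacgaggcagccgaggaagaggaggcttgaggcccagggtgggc
GFI1B, chr9:132978444-132978743, plus strand: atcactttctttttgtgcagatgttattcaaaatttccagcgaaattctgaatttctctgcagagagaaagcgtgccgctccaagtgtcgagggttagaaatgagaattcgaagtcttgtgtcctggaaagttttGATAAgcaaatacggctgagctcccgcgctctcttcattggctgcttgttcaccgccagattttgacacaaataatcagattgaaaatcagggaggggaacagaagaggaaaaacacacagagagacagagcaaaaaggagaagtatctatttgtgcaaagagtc
GATA1, chrX:48786340-48786639, plus strand: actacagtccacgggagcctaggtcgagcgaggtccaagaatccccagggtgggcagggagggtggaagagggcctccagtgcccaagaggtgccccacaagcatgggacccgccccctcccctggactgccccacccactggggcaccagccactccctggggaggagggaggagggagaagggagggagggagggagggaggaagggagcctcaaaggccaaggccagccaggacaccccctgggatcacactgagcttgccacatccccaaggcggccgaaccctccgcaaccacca

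The TAL1 window shown is the first of 2 and held 2 cores, at 67 and 35 bases before the start. The second TAL1 window held none. The KLF1 window held 1 core, at 66 bases before its start. Like that of GATA1, the windows of GATA2, LDB1, ZFPM1 and RUNX1 held no core. The GFI1B window is the second of 2 and held a core 115 bases before its start. That core is the end of a CTG and GATA pair at the spacing of the TAL1 and GATA1 composite site, CTGNNNNNNNNNGATA, searched on both strands. The pair was in 1 of the 11 windows, and 1.87% of all windows hold it. The E-box CANNTG, which reads the same on both strands, was in 5 of the 11 windows and in 68.7% of all. The CACCC-type letters CCNCNCCC, or GGGNGNGG on the other strand, were in 8 of the 11 and in 56.2% of all. RUNX-like letters, searched loosely as TGNGGT with any base at N, or ACCNCA on the other strand, were in 5 of the 11. Of all windows, 43.2% hold them. The letters TGTGGT and TGCGGT were in the second TAL1 window alone. The matches of GATA2 read TGAGGT and ACCTCA, that of KLF1 ACCCCA and that of ZFPM1 TGGGGT. An AP-1 like pattern for NFE2, searched loosely as TGANTCA with any base at N, was in 1 window and in 7.71% of all. That window was the first of TAL1, where the match read TGAATCA. These are matches of letters, and no binding was measured here.

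Across the arrays, the median intensity lay between 31.1 and 32.0 with calactin, against 33.0 to 34.3 in untreated cells, so every calactin array was dimmer than every untreated one. The poly-A spikes, control RNAs put in before labelling, had geometric means of 887, 1135 and 83.4 with calactin and 1297, 1896 and 112 in untreated cells. The arrays numbered 3 therefore stand apart in both groups on that control. Of 14 K562 markers, 11 were measured and 3 of these (TFRC, HEMGN and KIT, given below) were called lower, where 16.6% of all genes were. The embryonic globin genes HBZ and HBE1 averaged 11877 and 13173 with calactin, against 11969 and 13552 in untreated cells. MPO, a granulocyte enzyme, was dim, at 24.8 with calactin and 14.8 in untreated cells. Some markers of other tissues were bright. The epithelial genes EPCAM and KRT19 averaged 2547 and 1942 with calactin, against 2953 and 2492 in untreated cells, CD3D of T cells 1703 with calactin and 2330 in untreated cells, COL1A1 of fibroblasts 818 with calactin and 787 in untreated cells, and LYZ of monocytes 679 with calactin and 806 in untreated cells. Others of the same lists were dim: CD2 averaged 31.5 with calactin and 37.3 in untreated cells, and CDH1 13.9 with calactin and 9.85 in untreated cells. The part of these values in the results below was not tested. In such bulk RNA, fewer cells expressing a gene and less RNA per cell cannot be told apart.

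The factor genes moved in different directions. LMO2 was 3.24-fold lower with calactin and GATA1, GATA2 and NFE2 were 1.82-fold, 1.48-fold and 1.41-fold lower, while TAL1 was 1.89-fold higher. LDB1, KLF1, ZFPM1 and GFI1B were not called. A call is an adjusted p under 0.05 (limma, two-sided, Benjamini-Hochberg), and these folds are on the log2(intensity + 16) scale, taken from the brightest probe set of a gene and adjusted over all genes. That made 4 of 9 genes lower and 1 of 9 higher, and across all genes 16.6% were called lower and 4.98% higher.

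By probe set, 5 of the 19 were called lower and 3 higher, with 10.3% of all probe sets called lower and 3.68% higher. The 3 calactin values lay wholly below the untreated ones in 6 of the 19 and wholly above them in 3, where 19% and 9.36% of all probe sets did so. The median log2 difference was 0.00 over the 19 and -0.05 over all probe sets. Calactin replicate 2 was the brightest of the 3 calactin arrays in 13 of the 19 (68.4%), against 35.7% of all probe sets, so several members below carry 1 calactin value apart from the other two.

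**Figure D1:**
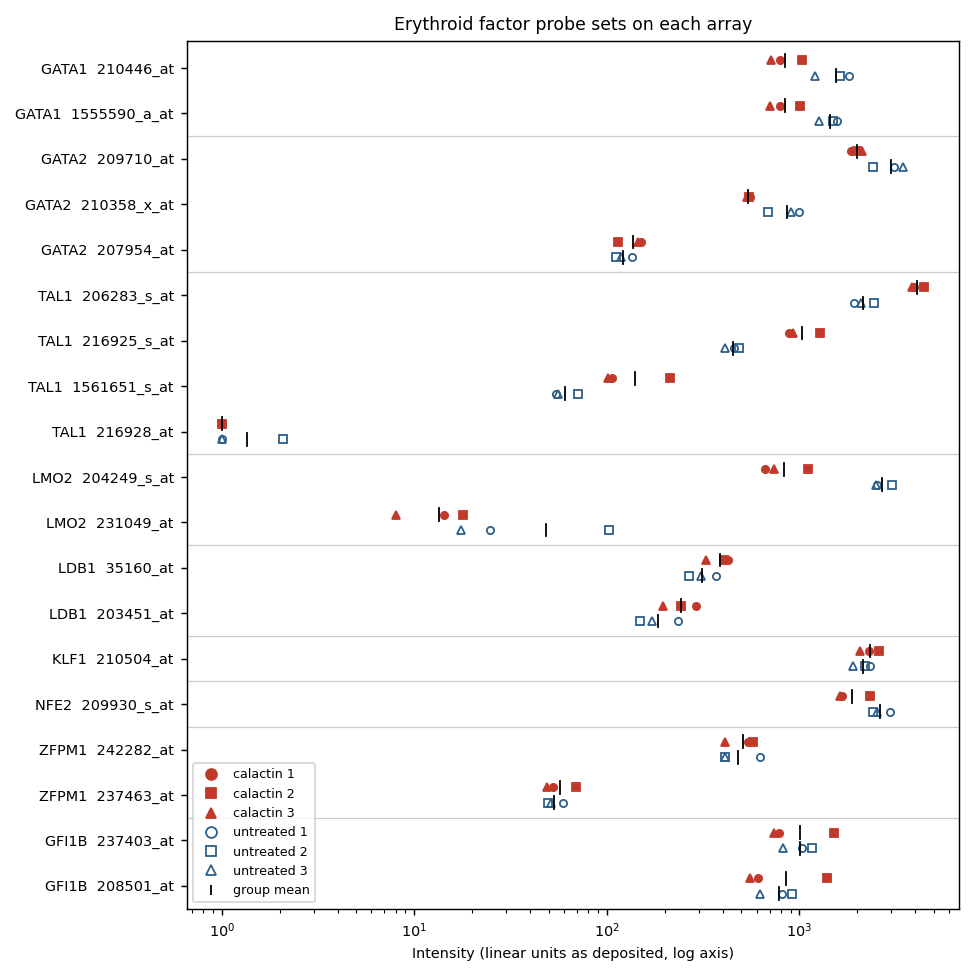
Intensity of the 19 probe sets that carry the symbol of 1 factor gene, on a log axis, with calactin arrays as filled red symbols above and untreated arrays as open blue symbols below; marker shape gives the replicate number and black ticks the group means. LMO2 204249_s_at and both bright GATA1 probe sets lie lower with calactin, 3 TAL1 probe sets lie higher, and the calactin 2 square of GFI1B lies apart from the other calactin arrays.

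Of the proteins that form the core, TAL1 is the one that reads the E-box. Its brightest probe set, 206283_s_at, read 3925, 4453 and 3823 on the calactin arrays, against 1918, 2444 and 2080 on the untreated ones. All 3 calactin values lay above all untreated values, and the difference was 0.92 ± 0.10 (log2, SE, n = 3 each) with an adjusted p of 7.54e-04 in limma. A second probe set, 216925_s_at, read 887, 1274 and 921 with calactin, against 459, 487 and 409 in untreated cells. It was higher on every calactin array too, by 1.14 ± 0.14, with an adjusted p of 0.00131 in limma.

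The remaining TAL1 probe sets were dimmer. 1561651_s_at read 107, 213 and 101 with calactin, against 54.7, 70.8 and 55.6 in untreated cells, a difference of 0.97 ± 0.26 with an adjusted p of 0.0412 in limma. Calactin replicate 2 was about as far from its group as the groups were from each other, and leaving out any 1 of the 6 arrays ended the call (adjusted p 0.0533 to 0.148; 0.0714 without calactin replicate 2). 216928_at gave 1 on all 3 calactin arrays and no more than 2.08 on an untreated one, so it lies at the bottom of the scale and measured no TAL1 level here. Of 4 TAL1 probe sets, then, 3 were higher and 1 had no usable signal.

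LMO2, the adaptor with 2 LIM domains, had the largest fall among the 9 genes. 204249_s_at read 661, 1110 and 735 with calactin, against 2518, 3015 and 2507 in untreated cells. The highest calactin value was less than any untreated value, and the difference was -1.69 ± 0.18 (log2, SE, n = 3 each) with an adjusted p of 5.78e-04 in limma. The other LMO2 probe set, 231049_at, was dim, with 14.3, 17.9 and 8.00 with calactin, against 24.6, 102 and 17.6 in untreated cells. One untreated array set that mean, the groups overlapped, and the difference of -0.90 ± 0.43 was not called (adjusted p 0.257 in limma).

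The relation between LMO2 and TAL1 can be read within each array, where no scaling between arrays enters. The log2 ratio of LMO2 204249_s_at to TAL1 206283_s_at was lower with calactin by a factor of 6.12, a change of -2.61 (SD 0.28 with calactin and 0.06 in untreated cells, n = 3 each). The GATA1 to TAL1 ratio changed by -1.78 (SD 0.15 with calactin and 0.36 in untreated cells), also without overlap of the groups. The GATA1 to GATA2 ratio changed by -0.30 (SD 0.31 with calactin and 0.50 in untreated cells), and its groups overlapped. These ratios, with 1 more given below, were chosen after their values were seen and are given as descriptions.

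LDB1 is the dimerising protein that joins the complex across distant DNA. 35160_at read 425, 406 and 328 with calactin, against 367, 267 and 307 in untreated cells. The groups overlapped and the difference of 0.29 ± 0.15, with a 95% interval from -0.05 to 0.62, was not called (adjusted p 0.285 in limma). 203451_at gave 0.37 ± 0.19, with an adjusted p of 0.303 in limma, so both LDB1 probe sets leaned the same way without a call.

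GATA1, the master regulator of red cell and platelet lineages, was lower in both of its probe sets. 210446_at read 794, 1028 and 712 with calactin, against 1820, 1634 and 1207 in untreated cells, a difference of -0.86 ± 0.18 (log2, SE, n = 3 each) with an adjusted p of 0.0121 in limma. 1555590_a_at read 796, 1012 and 704 with calactin, against 1562, 1489 and 1270 in untreated cells, a difference of -0.78 ± 0.14 with an adjusted p of 0.00651 in limma. In both, every calactin value lay below every untreated one. The call of 210446_at ended when calactin replicate 1 or 3, or untreated replicate 1 or 2, was left out (adjusted p 0.0546 and 0.0616, and 0.0523 and 0.0510), with the difference between -0.74 and -0.83. With poly-A spikes and the replicate block, 1555590_a_at gave -0.21 and was not called (adjusted p 0.131).

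GATA2, the factor of stem and progenitor cells that GATA1 normally displaces, had 3 probe sets. 209710_at read 1846, 1997 and 2123 with calactin, against 3087, 2400 and 3462 in untreated cells, and 210358_x_at read 553, 544 and 535 with calactin, against 993, 690 and 908 in untreated cells. Neither had overlapping groups, and untreated replicate 2 was the lowest untreated array in both. The differences were -0.57 ± 0.13 for 209710_at and -0.63 ± 0.13 for 210358_x_at, with adjusted p of 0.0206 and 0.0131 in limma.

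The dimmest GATA2 probe set, 207954_at, read 150, 115 and 144 with calactin, against 136, 112 and 118 in untreated cells. Its difference of 0.14 ± 0.15 was not called (adjusted p 0.662 in limma), so the GATA2 probe sets disagree, and the mean of all 3 gave -0.35 for the gene with an adjusted p of 0.0632. Of the 2 calls, that of 209710_at ended when any calactin array, or untreated replicate 1 or 3, was left out (adjusted p 0.0557 to 0.0845), and that of 210358_x_at when calactin replicate 2, calactin replicate 3 or untreated replicate 3 was (0.0558 to 0.0707). Hybridisation spikes ended both calls (adjusted p 0.297 for 209710_at and 0.185 for 210358_x_at), quantile normalization that of 210358_x_at (0.0610) and a fit without a variance trend that of 209710_at (0.0677). On arrays scaled by poly-A spikes, with the replicate number as a block, 209710_at gave 0.0057 and 210358_x_at -0.06 (adjusted p 0.970 and 0.661).

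ZFPM1, which GATA1 needs at many of its sites, did not pass the test. 242282_at read 542, 576 and 412 with calactin, against 624, 411 and 409 in untreated cells, a difference of 0.09 ± 0.19 with a 95% interval from -0.33 to 0.52 (adjusted p 0.842 in limma). 237463_at, dimmer, gave 0.07 ± 0.18 (adjusted p 0.889). The sign of both turned when a single array was left out.

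KLF1, the activator of adult β-globin, was among the brightest members. 210504_at read 2306, 2596 and 2065 with calactin, against 2322, 2203 and 1909 in untreated cells. The groups overlapped and the difference was 0.11 ± 0.11, with a 95% interval from -0.13 to 0.36 and an adjusted p of 0.619 in limma. The lower end of that interval leaves out a fall of the size measured for GATA1, GATA2 or LMO2.

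NFE2, the basic leucine zipper protein that pairs with small MAF proteins at globin enhancers, was near the threshold. 209930_s_at read 1660, 2321 and 1635 with calactin, against 2941, 2405 and 2540 in untreated cells, without overlap, but calactin replicate 2 came close to the lowest untreated array. The difference was -0.50 ± 0.14 (log2, SE, n = 3 each), with an adjusted p of 0.0515 over probe sets and 0.0347 over genes in limma. With the replicate block the adjusted p over probe sets was 0.0432, and without calactin replicate 2 the difference was -0.66 with an adjusted p of 0.0110. Over genes the call ended when replicate 1 or 3 of either group was left out (adjusted p 0.0960 to 0.133).

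GFI1B, the repressor that recruits the histone demethylase KDM1A, had 1 calactin array apart from the others in both probe sets. 237403_at read 787, 1508 and 741 with calactin, against 1033, 1167 and 826 in untreated cells, and 208501_at read 611, 1393 and 553 with calactin, against 816, 921 and 625 in untreated cells. In both, calactin replicate 2 lay above every untreated array and the other calactin arrays below every untreated one. The differences were -0.06 ± 0.25 and 0.00 ± 0.32, neither called (adjusted p 0.936 for 237403_at in limma, and higher for 208501_at). Without calactin replicate 2 the value of 208501_at was -0.41. The 95% interval of 237403_at, from -0.64 to 0.52, covers a difference as large as that of GATA2 209710_at.

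**Figure D2:**
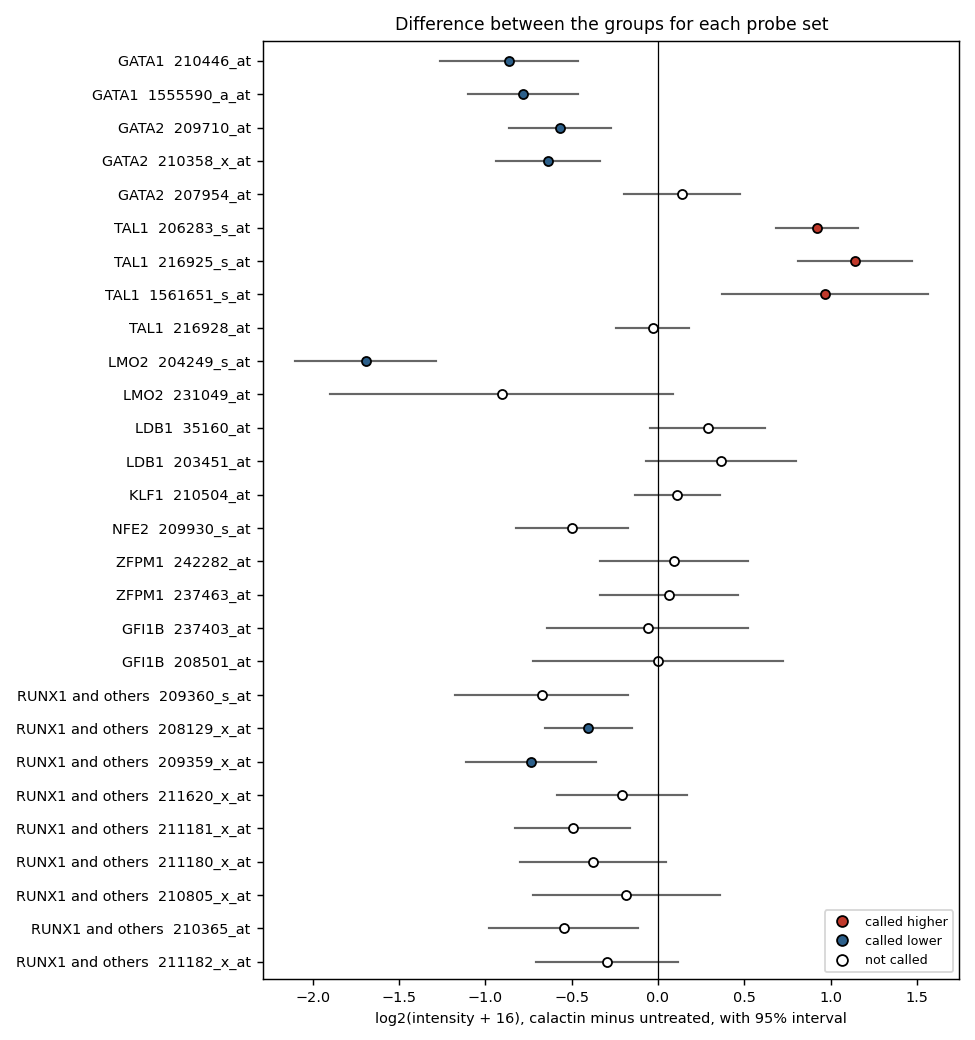
Difference between calactin and untreated arrays in log2(intensity + 16) for each probe set, with its 95% interval; the 19 probe sets of single genes come first, then the 9 of 13 probe sets shared by RUNX1 and 2 other loci that lie above the array median. Red marks a call higher and blue a call lower. TAL1 has 3 red points at 0.92 to 1.14, LMO2 the lowest point at -1.69, and the interval of GFI1B 208501_at runs from -0.72 to 0.73.

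For RUNX1, no probe set carries its symbol alone, so what follows cannot be assigned to RUNX1 rather than to the 2 loci listed with it. Of the 13 probe sets, 12 had a negative difference, as had 31075 of all 54613, and the values ran from -0.74 to 0.03 with a median of -0.31. Calls were made for 2 of the 13, both lower, where 10.3% of all probe sets were called lower. With the replicate number as a block, 4 of the 13 were called lower, with 12.9% of all probe sets. In 4 of the 13 both group means lay below the array median. 209359_x_at read 148, 116 and 110 with calactin, against 178, 231 and 248 in untreated cells, a difference of -0.74 ± 0.16 with an adjusted p of 0.0188 in limma.

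208129_x_at, whose accession is a RefSeq transcript of RUNX1, read 193, 220 and 227 with calactin, against 270, 294 and 296 in untreated cells. Its groups did not overlap, and the difference was -0.40 ± 0.11 with an adjusted p of 0.0444 in limma. The brightest of the 13, 209360_s_at, read 326, 163 and 192 with calactin, against 355, 335 and 381 in untreated cells. Calactin replicate 1 was near the untreated arrays, and the difference of -0.67 ± 0.22 was not called (adjusted p 0.0858; 0.0338 with the replicate block; 0.00664 without calactin replicate 1). Neither of the 2 calls held under quantile normalization, where the differences were -0.54 for 209359_x_at and -0.21 for 208129_x_at or when replicate 2 or 3 of either group was left out.

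The scaling of the arrays moved all members together with the genes as a whole. The median of all genes was -0.06 as deposited, 0.02 after quantile normalization, 0.04 when scaled to the hybridisation spikes and 0.51 with poly-A spikes and the replicate block. On those scales, in that order, LMO2 gave -1.69, -1.58, -1.59 and -1.12, and TAL1 gave 0.92, 0.999, 1.02 and 1.49. LMO2 204249_s_at was thus lower and TAL1 206283_s_at higher on every scale tried, with a call in all 17 alternatives. GATA1 210446_at gave -0.86, -0.72, -0.76 and -0.29. GATA2 209710_at gave -0.57, -0.48, -0.47 and 0.0057, and NFE2 gave -0.50, -0.40, -0.40 and 0.073, so the poly-A spikes turn both to about 0. The calls of both genes were also lost with hybridisation spikes (adjusted p 0.216 for GATA2 and 0.342 for NFE2 over genes), and that of NFE2 after quantile normalization (0.0767) and without a variance trend (0.0858).

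**Figure D3:**
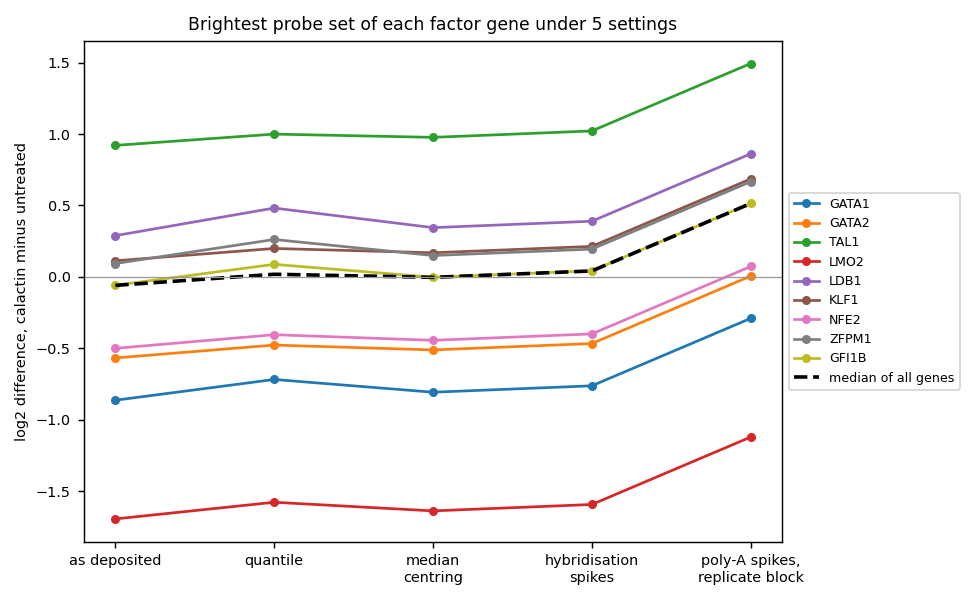
Log2 difference between calactin and untreated arrays for the brightest probe set of each of the 9 genes under 5 ways of scaling the arrays, with the median of all genes as the dashed line. LMO2 stays lowest, at -1.69 as deposited and -1.12 with poly-A spikes, and TAL1 highest, at 0.92 and 1.49, while the dashed line moves to 0.51 with poly-A spikes.

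The partners that bridge the complex or bind DNA beside it were mixed. Of 16 listed, 15 were measured by a probe set of their own. Of these, 4 were called higher, 3 lower and 8 not called, with 4.98% of all genes higher and 16.6% lower. Their median was 0.08, against -0.06 for all genes. TCF4, an E protein that can pair with TAL1, averaged 766 ± 97.7 with calactin and 450 ± 37.3 in untreated cells (SD, n = 3 each), a difference of 0.74 ± 0.12 with an adjusted p of 0.00221 in limma, and 7 of its 8 probe sets were called higher. Of the other E proteins, TCF12 was called higher by 0.32 in its brightest probe set, but its 4 probe sets averaged 0.02 with 1 called in each direction, and TCF3 (E2A) was at -0.13 without a call.

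The small MAF proteins, which dimerise with NFE2, also differed. MAFF was lower by 1.03 on the log2 scale, at 310 ± 71.1 with calactin and 642 ± 102 in untreated cells, while MAFG was higher by 0.73 (adjusted p 0.00333 and 0.0274 in limma). MAFK was not measured by a probe set of its own. BACH1, a repressor that competes for the same sites, was lower by 0.74 in its brightest probe set, but the mean of its 3 probe sets was 0.13. CBFB, the partner that strengthens RUNX binding, was higher by 0.31 (adjusted p 0.0170 in limma). SSBP4, of a family that stabilises LDB1, was lower by 0.47 in its brightest probe set (adjusted p 0.00189 in limma). Of its 3 probe sets 2 were called lower, and their mean of -0.43 was not called (adjusted p 0.0603 in limma).

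Among cofactors, CBFA2T3 (ETO2) stood out by its size of change. This corepressor sits in the TAL1 and LDB1 complex and holds back late erythroid genes. It read 155, 225 and 183 with calactin, against 695, 588 and 762 in untreated cells. Its groups lay far apart, with a difference of -1.78 ± 0.16 (log2, SE, n = 3 each) and an adjusted p of 1.46e-04 in limma over genes, and it was called lower in all alternatives run. Set against TAL1 within each array, it changed by -2.70.

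Over the whole list of corepressors and coactivators, 25 of 27 genes were measured, with a median of 0.00. Of these, 5 were called higher, 6 lower and 14 not called, with 4.98% of all genes higher and 16.6% lower. KDM1A, the demethylase that GFI1B brings to DNA, was at 1929 ± 23.2 with calactin and 2627 ± 87.7 in untreated cells (SD, n = 3 each), a difference of -0.44 (adjusted p 0.00148 in limma). With the poly-A spikes it was at 0.13. The acetyltransferase CREBBP and the Mediator subunit MED1, which GATA1 contacts, were higher by 0.88 and 0.57 (adjusted p 0.00119 and 0.00100 in limma).

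Of 17 paralogs, 2 were called higher, 4 lower and 11 not called, with 4.98% of all genes higher and 16.6% lower. The median of the paralogs was -0.05. NFE2L3, a relative of NFE2, averaged 56.8 ± 6.85 with calactin and 179 ± 21.5 in untreated cells (SD, n = 3 each), and NFE2L1 averaged 1928 ± 139 with calactin and 1316 ± 88.9 in untreated cells. The 2 relatives thus moved in opposite directions, by -1.42 and 0.55 (adjusted p 3.65e-04 and 0.00221 in limma). RUNX2, GATA5 and GATA3 were called lower by 1.35, 1.31 and 0.68, all dim, with untreated means of 67.5, 37.5 and 13.5. Each rests on 1 called probe set, of 6, 2 and 3, and averaged over probe sets RUNX2 gave -0.14, GATA5 -0.73 and GATA3 -0.29, of which GATA5 alone was called. LYL1, the closest relative of TAL1, was at 0.06 without a call.

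**Figure D4:**
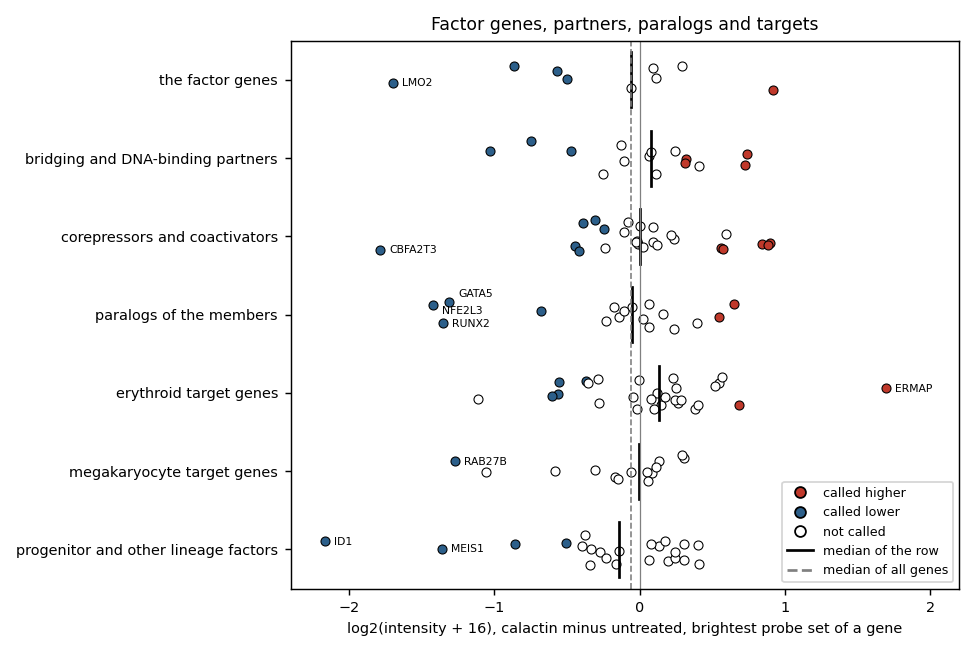
Log2 difference between calactin and untreated arrays for the brightest probe set of each gene, for the 9 factor genes and 6 lists of related genes. Red points were called higher, blue lower and white not called; the solid tick is the median of a row and the dashed line that of all genes, at -0.06. Genes beyond 1.2 in either direction are named, among them CBFA2T3 at -1.78, ID1 at -2.16 and ERMAP at 1.69.

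The genes that the complex is known to drive in red cells were called in both directions, and their count depended on the pairing of the arrays. Of 34 listed, 28 were measured, and 2 were called higher, 4 lower and 22 not called, with 4.98% of all genes higher and 16.6% lower. With the replicate number as a block, 10 were called higher, 7 lower and 11 not called, with 7.1% of all genes higher and 20.2% lower. The median was 0.13, against -0.06 for all genes. The blood group antigen gene ERMAP read 2638, 3546 and 2447 with calactin, against 643, 1346 and 753 in untreated cells, a difference of 1.69 ± 0.25 (log2, SE, n = 3 each) with an adjusted p of 0.00163 in limma. XK, the Kell-linked membrane protein, was higher by 0.68 (adjusted p 0.0363).

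With the block, 11 more of these targets were called, and those named here were chosen after their values were seen. SLC25A37 (mitoferrin), the mitochondrial iron importer, read 748, 1728 and 671 with calactin, against 1913, 3338 and 1409 in untreated cells. Replicate 2 was the brightest in both groups, so the groups overlapped while every calactin array was below its same-numbered untreated one. The difference was -1.11, with an adjusted p of 0.0789 without the block and 1.55e-04 with it in limma. That is its brightest probe set. Of its 10 probe sets, 3 were called lower without the block, and the mean of all 10 gave -0.69 (adjusted p 0.112 in limma). SLC4A1 (band 3), the anion exchanger, read 487, 956 and 365 with calactin, against 312, 569 and 296 in untreated cells, a difference of 0.55 with an adjusted p of 0.355 without the block and 0.00663 with it in limma. The Kell antigen gene KEL, higher by 0.52, and the haem enzymes FECH and ALAS2, higher by 0.25 and 0.26, were likewise called with the block alone (adjusted p 0.00430, 0.0139 and 0.0277 in limma). Averaged over probe sets, FECH gave 0.095 and ALAS2 0.039, neither called in the fit without the block. Among other haem enzymes, UROS at 0.23 was called higher and PPOX at -0.28 lower with the block alone (adjusted p 0.0464 and 0.0385 in limma). PPOX averaged 0.11 over its probe sets. ALAD at -0.29 was not called (0.0514 with the block). Another target, TRIM58, at -0.36 was called lower with the block alone (0.0457).

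TFRC, the transferrin receptor, averaged 7677 ± 488 with calactin and 11262 ± 351 in untreated cells (SD, n = 3 each), a difference of -0.55 with an adjusted p of 4.18e-04 in limma. The membrane skeleton gene ADD2 and the GATA1 target HEMGN were lower by 0.60 and 0.37 in their brightest probe sets (adjusted p 0.0118 and 0.0419 in limma over genes). Averaged over its 6 probe sets ADD2 gave -0.10, and over its 2 HEMGN gave -0.35, neither called (adjusted p 0.769 and 0.187). HEMGN and TFRC gave 0.20 and 0.02 with the poly-A spikes. EPOR, the erythropoietin receptor, was at 0.14 without a call, and BCL11A, the repressor of fetal globin, was dim at 17.8 with calactin and 6.70 in untreated cells, called higher with the block alone (adjusted p 0.0487).

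Of the platelet-lineage targets, 16 were listed and 14 measured; 1 was called lower and 13 were not called, against 16.6% of all genes lower and 4.98% higher. With the block, 2 were called lower, where 20.2% of all genes were. The other gene was TUBB1, the platelet β-tubulin, at -1.06 (adjusted p 0.132 without the block and 9.85e-04 with it in limma). The gene called in both fits was RAB27B, a small GTPase of platelet granules. Its brightest probe set was at 60.8 ± 3.04 with calactin and 169 ± 19.7 in untreated cells (SD, n = 3 each). That is a difference of -1.27 with an adjusted p of 4.60e-04 in limma. RAB27B had 1 of 3 probe sets called lower, and the mean of the 3 gave -0.45 (adjusted p 0.0265 in limma). GP6, the platelet collagen receptor, was at -0.58 without a call (adjusted p 0.0715). F2R was at -0.15 in its brightest probe set without a call. Of its 2 probe sets 1 was called lower, and their mean gave -1.03 (adjusted p 6.55e-04 in limma). Several of the genes not called were dim, such as VWF, THBS1 and PF4, with untreated means of 9.53, 23.2 and 32.1, so the lack of a call says little of them.

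Of 24 progenitor and other-lineage factors, 23 were measured, with a median of -0.14. Of these, 4 were called lower and 19 not called, with 16.6% of all genes lower and 4.98% higher. With the block, 6 were called lower and 1 higher, with 20.2% of all genes lower and 7.1% higher. ID1, which sequesters E proteins away from DNA, read 567, 859 and 719 with calactin, against 3775, 2251 and 3912 in untreated cells. Its groups were far apart, by -2.16 ± 0.22 (log2, SE, n = 3 each) with an adjusted p of 2.72e-04 in limma. MEIS1, a homeodomain factor of stem cells, KIT, the stem cell factor receptor that GATA2 activates, and IGF2BP3, a fetal RNA-binding protein, were lower by 1.36, 0.86 and 0.51 (adjusted p 0.00111, 0.0123 and 0.00304 in limma). Of the 4 probe sets of IGF2BP3, 2 were called lower, and their mean of -0.32 was not called (adjusted p 0.0663 in limma). KIT was dim, at 51.7 with calactin and 104 in untreated cells. MYB, a progenitor factor, and SPI1 (PU.1), the myeloid factor that opposes GATA1, were at 0.08 and -0.40 without a call.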

How the data were processed

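Per the labels' protocols, Trizol was used for RNA, and 8 ug of total RNA went into each biotinylated cRNA. The authors deposited 1 linear intensity per probe set and array. How probes were summarised, corrected for background and scaled is not stated in those sources.

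Intensities were taken as log2(intensity + 16) without further scaling, and a fold on that scale understates the change of dim genes. R 4.3.3 and limma 3.58.1 (lmFit, then eBayes, trend on) compared 3 calactin with 3 untreated arrays over 54613 probe sets, leaving out 62 controls, with Benjamini-Hochberg adjustment. Precision is limited by the number of arrays. The test was checked on simulated data. For genes, the brightest of the probe sets with 1 symbol stood for its gene, and 1801 probe sets with several symbols named none. Adjusted p in list results are over 19775 genes. Platform symbols were checked against current ones by gene identifier for 41037 of 41091 probe sets, which changed 0.

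Reported p-values come from the fit without pairing unless the replicate block is named. That block, a term for the replicate number, was fitted as an alternative. Deviations from the group means of same-numbered arrays correlated at 0.42, 0.32 and 0.24 over 27305 probe sets. Those of differently numbered arrays gave -0.34 to -0.01. Deviations from a mean cancel within each group, so the negative values go with the positive ones and are no further support for pairing. The labels do not say what a number shares.

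Named were all members with each probe set, up to 4 genes of each list with the smallest p, and textbook partners and targets. TCF12, MAFG, TUBB1, ALAD, F2R, the dim platelet-lineage genes and the targets called with the block alone, outside that rule, were chosen after their values were seen. Members and lists were chosen with earlier results of these data known. Alternatives covered scaling, pseudocounts of 1 and 64, a filter on dim probe sets, variance moderation, the replicate block, leaving out each array, and the choice of probe set. The use of replicates 1 and 2 alone was chosen after seeing the data. Python 3.11.15, with matplotlib 3.10.9 for the plots, was used for promoter letters.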

Additional observations from a re-analysis of the deposited data

How the results depend on the processing

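LMO2 204249_s_at and TAL1 206283_s_at kept direction and call in all 17 alternatives, with the highest adjusted p (limma) at 0.0493 and 0.0467, both for replicates 1 and 2 alone. Member probe sets called lower were 5 as reported, 3 with hybridisation spikes, 2 with poly-A spikes and the replicate block, 1 with replicates 1 and 2 alone, and 2 to 4 when 1 array was left out. Those called higher were 3 as reported, 12 with poly-A spikes, 1 with replicates 1 and 2 alone, and 2 without any 1 array. Member genes called lower were 4 as reported, 2 with hybridisation spikes, 2 with poly-A spikes, 2 with replicates 1 and 2 alone, and 2 to 4 without 1 array; genes called higher were 1 as reported, 5 with poly-A spikes and 0 when probe sets without a shared-sequence mark came first, which picks a TAL1 probe set at the bottom of the scale (-0.030). That choice also ended the gene call of LMO2 (-0.90, adjusted p 0.210). Over all probe sets, 5600 were lower and 2011 higher as reported, 4081 and 3382 after quantile normalization, 2265 and 1220 with hybridisation spikes, 1858 and 31723 with poly-A spikes, 1279 and 340 with replicates 1 and 2 alone, and 3640 to 4832 and 1222 to 1949 without 1 array. The share of calls that were lower was 73.6% as reported, 54.7% after quantile normalization, 65.9% after median centring, 65.0% with hybridisation spikes and 5.53% with poly-A spikes. The replicate block brought an adjusted p of 0.0432 for NFE2 209930_s_at and 0.0338 for the shared probe set 209360_s_at, and changed no other call of a factor gene's own probe sets. Among the erythroid targets it raised the calls to 10 higher and 7 lower.

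These values turned sign. With poly-A spikes they were 0.0057 for GATA2 209710_at, 0.073 for NFE2, 0.54 for TAL1 216928_at, 0.51 for GFI1B 237403_at, 0.17 for 208129_x_at and 0.36 for 211620_x_at (both shared by RUNX1), and 0.44 for TCF3, 0.098 for SSBP4, 0.13 for KDM1A, 0.20 for HEMGN, 0.020 for TFRC, 0.17 for SPI1 and 0.066 for IGF2BP3. On this scale the median of all genes was itself 0.51. TAL1 216928_at gave 0.027 after median centring and 0.071 with hybridisation spikes, and GFI1B 237403_at 0.088 after quantile normalization and 0.042 with hybridisation spikes. 211620_x_at gave 5.84e-04 with replicates 1 and 2 alone. Without 1 array, ZFPM1 237463_at ran from -0.052 to 0.14, ZFPM1 242282_at from -0.0061 to 0.29, GFI1B 208501_at from -0.41 to 0.24, GFI1B 237403_at from -0.38 to 0.12, LYL1 from -0.016 to 0.18 and MYB from -0.13 to 0.22. Averaged over all probe sets of the gene, BACH1 gave 0.13, MYB -0.30 and EPOR -0.018. The cause of these differences was not tested. Dim probe sets (TAL1 216928_at, LMO2 231049_at and 4 of the shared ones) limit what can be said of them.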
